A study of Mus musculus with 4 samples.

Results

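The cells described here are barcodes of the E11.5 Lmx1aCre::Ai9::b-cat gof library that carried many transcripts of secreted Wnt inhibitors, and they are called high-feedback cells. They were chosen by their own counts: a barcode needed 1000 or more detected genes, no more than 10% of its UMIs (unique molecular identifiers, 1 per captured transcript) from mitochondrial genes, and at least 3 summed UMIs of Notum, Dkk1 and Wif1, of which at least 1 was Notum or Dkk1. The rule found 281 cells among the 7593 that passed the barcode filter in that library, a share of 3.70% (exact binomial 95% interval 3.29 to 4.15%). All 4 libraries of the series together held 27196 passing barcodes.

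The series sampled tissue dissected around the cortical hem of mouse embryos, including Cajal-Retzius cells and part of the hippocampal primordium, with 1 library for each of 2 genotypes at E11.5 and E14.5. Both genotypes carried Lmx1aCre, a recombinase expressed where Lmx1a is active, and Ai9, a reporter that makes tdTomato after recombination. The gof genotype carried in addition the b-cat gof allele of beta-catenin, which the series title ties to constitutive canonical Wnt signalling in hem progenitors. Control embryos were Lmx1aCre::Ai9. Male embryos were pooled, 5 being given for the E11.5 libraries without saying how many entered each, so no embryo can be told from another and no value has a replicate. The 3′ counts of Ctnnb1, the beta-catenin gene, do not show which allele a transcript came from.

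High-feedback cells were set against 3 groups. The first was the 899 other gof cells in which at least 2 of the 4 hem genes Wnt3a, Wnt9a, Rspo1 and Lmx1a were detected, called gof hem-rule cells. The second was all 7312 other gof cells, which include the first group. The third was the 1497 E11.5 control cells that met the same hem rule. A level is the summed UMIs of a gene over the cells of a group scaled to 1000000 UMIs (CPM), with an exact Poisson 95% interval. These intervals, and the binomial ones on shares, cover counting error only, and they take no account of differences between embryos or libraries. With 1 library per group no test of a difference between genotypes was possible, and none between groups of cells is given.

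The E11.5 gof library held 59594082 UMIs in 8677 barcodes and the E11.5 control library 78732126 UMIs in 7578 barcodes. Median depth was 8588 UMIs in high-feedback cells, 8141 in gof hem-rule cells, 5833 in other gof cells and 12564 in control hem-rule cells. A rule on UMI counts is more easily met by a deep cell. High-feedback cells ranged between 1829 and 87301 UMIs. The part of depth in the results below was not tested, except where shares of cells with a gene detected are given after thinning. Those shares keep the groups as first chosen. Log2 ratios and list medians after thinning come from cells chosen anew on the thinned counts, so there the groups changed along with depth. The E11.5 gof library shared 18 cell barcodes with the E11.5 control library, and no high-feedback barcode was among those shared with any other library.

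Canonical Wnt signalling stabilises beta-catenin, which enters the nucleus and acts with the TCF and LEF factors on target genes. Many of these targets act back on the pathway. Notum is a secreted enzyme that removes the lipid from Wnt ligands, Dkk1 blocks the LRP5 and LRP6 co-receptors, and Wif1 binds Wnt ligands outside the cell. Axin2 and Nkd1 act inside the cell, and Znrf3 and Rnf43 remove Frizzled receptors from its surface. In the developing telencephalon the cortical hem is the dorsal midline source of Wnt and BMP ligands, it organises the hippocampus, and it gives rise to many Cajal-Retzius cells.

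The TCF and LEF factors bind DNA at a core usually written CTTTGA, with TCAAAG on the other strand. Promoter windows were searched for these 6 letters on both strands, since the transcripts that define and mark these cells belong to known target genes. RefSeq windows (GRCm38.p6, 250 bases before to 50 after a gene start) were listed for 11 of the 19 genes looked for, which were the 3 rule genes and 16 Wnt targets. These genes had 17 windows, of which 4 (23.5%) held the core, against 16.0% of all 32851 windows. The 4 belonged to Dkk1, Sp5, Lef1 (1 of its 4 windows) and Tnfrsf19 (1 of its 2). A match of 6 letters is a description of the sequence and not a binding site. Sp5, a zinc-finger factor, is shown because it had a match at position 47 and another at position 147 of its window, counted from 1 at the 5′ end. The stretch is the 250 bases before its start at chr2:70474673-70474922 on the plus strand, and capitals mark the core.
Sp5: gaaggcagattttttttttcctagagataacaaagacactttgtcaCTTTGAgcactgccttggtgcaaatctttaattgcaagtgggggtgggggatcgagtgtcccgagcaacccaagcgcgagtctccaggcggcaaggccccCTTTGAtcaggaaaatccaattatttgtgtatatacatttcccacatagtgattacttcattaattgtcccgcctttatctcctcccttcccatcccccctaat
Dkk1, a rule gene, also had 2 matches, each shown with 12 bases on either side on the minus strand at chr19:30549653-30549682 and chr19:30549596-30549625.
Dkk1 upstream match: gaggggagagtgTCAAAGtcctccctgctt
Dkk1 downstream match: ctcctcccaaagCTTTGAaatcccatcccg
Of 3 other genes described below, Runx2 had 1 match in its listed window, and Mybpc1 and Wnt6 had none.

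The rule genes were co-detected in most high-feedback cells. All 3 were seen in 118 cells (42.0%), Notum with Wif1 in 86 (30.6%) and Dkk1 with Wif1 in 58 (20.6%). The remaining cells had Notum with Dkk1 (7 cells), Notum alone (7) or Dkk1 alone (5). A cell carried between 3 and 24 UMIs of the 3 genes, with a median of 5. Notum (ENSMUSG00000042988, chr11:120653788-120661175, GRCm38) reached 154 CPM (141 to 168) in high-feedback cells, against 6.58 in gof hem-rule cells, 3.67 in other gof cells and 0.878 in control hem-rule cells. Dkk1 (chr19:30545863-30549665) stood at 149 CPM (136 to 163), against 2.65, 4.88 and 1.67 in the same order of groups. Wif1 (chr10:121033960-121100650) stood at 260 CPM (243 to 278), against 12.4, 8.37 and 7.53. The rule fixed these differences, so they describe the choice and support nothing.

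Cells that met the rule were not restricted to the gof library. In the E11.5 control library 21 cells (0.302%, 0.187 to 0.461%) met it, and 13 of these carried the mesenchyme flag, meaning UMIs of at least 3 of 10 mesenchyme genes. Their median depth was 23146 UMIs. They held 78.6 CPM of Sp5, 58.5 of Nkd1, 4.03 of Pax3 and no UMI of Mybpc1, so they differed from high-feedback cells in markers that the rule did not use. No control cell had more than 8 UMIs of the rule genes, while 29 gof cells had 12 or more.

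**Figure D1:**
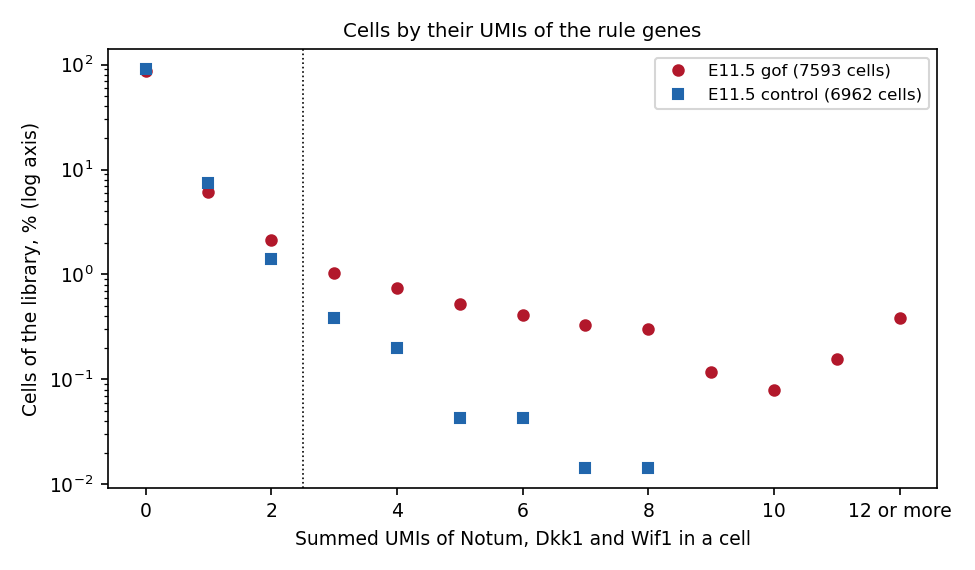
Percent of the passing cells of each E11.5 library (log axis) by summed UMIs of Notum, Dkk1 and Wif1, for the gof and the control library, the last bin holding cells with 12 or more. The gof library extends to 12 or more UMIs with 29 cells there, and the control library ends at 8.

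The cells carried the feedback marks that did not enter the rule. Sp5 (chr2:70474923-70477729) was detected in 88.3% of high-feedback cells, with between 0 and 26 UMIs per cell and a median of 3. It stood at 366 CPM (346 to 388) in high-feedback cells, against 114 in gof hem-rule cells, 51.1 in other gof cells and 87.6 in control hem-rule cells. The log2 ratio, with 1 CPM added to both levels, was 1.68 against gof hem-rule cells, 2.82 against other gof cells and 2.05 against control hem-rule cells. Nkd1 (chr8:88521354-88594884), which binds Dishevelled, stood at 266 CPM (249 to 285) in high-feedback cells, against 46.8, 35.6 and 40.6 in the same groups. Pax3 (chr1:78101267-78197134), a factor of the dorsal neural tube and neural crest, stood at 82.7 CPM (73.1 to 93.2), against 17.1, 9.67 and 16.4, with a median of 0 and a highest count of 20 UMIs per cell. For all 3 genes the interval of high-feedback cells lay above that of every comparison group.

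The difference in detection was also present at equal depth. After each cell was thinned to 3000 UMIs, which left out 14 of the 281 cells, Sp5 was detected in 62.5% of high-feedback cells, against 23.5% of gof hem-rule cells, 11.1% of other gof cells and 22.6% of control hem-rule cells. Nkd1 was detected in 58.1% of thinned high-feedback cells, against 11.3%, 9.39% and 10.2%. Erythroid cells of the gof library, which should lack both genes, showed Sp5 in 2.40% and Nkd1 in 2.99% of thinned cells. This is a rough measure of free RNA in the droplets, since 23 of these 334 cells met the hem rule and 32 carried the mesenchyme flag.

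A gene is called different where it was measured (at least 10 CPM in either group), the levels differed by at least 1.5-fold and the intervals were separate. Against control hem-rule cells 651 of 8669 measured genes (7.51%) were higher in high-feedback cells and 802 (9.25%) were lower. Against other gof cells 742 of 8615 (8.61%) were higher and 432 (5.01%) lower, and against gof hem-rule cells 504 of 8563 (5.89%) were higher and 283 (3.3%) lower. These shares over all measured genes are the background for every count of called list genes below. Because the median log2 ratio over all genes was not 0 in the first of these (-0.10) or in the second (0.09), centring on it changed the split to 779 higher and 572 lower against control hem-rule cells, and to 586 higher and 510 lower against other gof cells. Against gof hem-rule cells the median was -0.01. The high-feedback cells are the same in all 3 contrasts and other gof cells include the gof hem-rule cells, so counts from the contrasts are not independent of each other.

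Canonical Wnt targets other than the rule genes were higher as a list. Of 16 listed targets 11 were measured, and 9 of these were called higher and none lower against gof hem-rule cells, with a median log2 ratio of 1.43 where all genes had -0.01. The same 9 were higher against control hem-rule cells, with a median of 1.54 where all genes had -0.10. Against other gof cells 10 were higher and 1 lower, with a median of 1.99 where all genes had 0.09. The list and the rule are not independent, since the rule genes belong to the same pathway.

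Among targets that act inside the cell or at its membrane, Axin2, a scaffold of the complex that degrades beta-catenin, stood at 220 CPM (204 to 237) in high-feedback cells. It stood at 115 in gof hem-rule cells, 51.4 in other gof cells and 109 in control hem-rule cells. Apcdd1, a membrane inhibitor of Wnt signalling, stood at 172 CPM (158 to 187), against 40.5, 28.7 and 36.1 in those groups. The ubiquitin ligase Znrf3 stood at 148 CPM (135 to 162), against 54.4, 36.5 and 74.5. Its relative Rnf43 was at 11.7 CPM, against 1.91, 2.12 and 1.13. Tnfrsf19 (Troy), a TNF receptor family member, stood at 123 CPM, against 54.9, 43.9 and 55.4. These 5 genes were called higher in all 3 contrasts.

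Among the nuclear factors, Lef1 stood at 257 CPM (240 to 275) in high-feedback cells, against 87.0 in gof hem-rule cells, 74.5 in other gof cells and 87.8 in control hem-rule cells. Tcf7 stood at 20.7 CPM, against 9.02, 5.57 and 5.19. Tcf7l1, which mostly represses targets, went the other way at 17.9 CPM, against 27.1, 31.0 and 40.2, a difference called against other gof and control hem-rule cells but not against gof hem-rule cells. Tle1, a co-repressor, stood at 91.9 CPM, against 143 in gof hem-rule cells and 152 in control hem-rule cells, and against 72.0 in other gof cells, where it was not called.

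Some listed targets did not follow. Ccnd1, a D-type cyclin, stood at 60.5 CPM in high-feedback cells, against 67.2 in gof hem-rule cells, 98.1 in other gof cells and 87.8 in control hem-rule cells, and only the second of these differences was called. Bambi, a decoy BMP receptor, stood at 57.1 CPM, against 53.9, 36.8 and 74.0, and was called higher only against other gof cells. With cells chosen anew after thinning, its log2 ratio against other gof cells was -0.11. Ctnnb1 itself stood at 360 CPM (340 to 381), against 269, 208 and 296, and was called only against other gof cells, with a log2 ratio of 0.79.

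Of the 18 genes listed as the beta-catenin machinery 17 were measured, and few were called: against gof hem-rule cells 1 was higher (Btrc) and 1 lower (Tle1). Btrc, an F-box protein that targets beta-catenin for destruction, stood at 66.0 CPM in high-feedback cells, against 23.0 in gof hem-rule cells, 31.7 in other gof cells and 31.9 in control hem-rule cells, but 27.6% of its UMIs in high-feedback cells came from 1 cell.

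**Figure D2:**
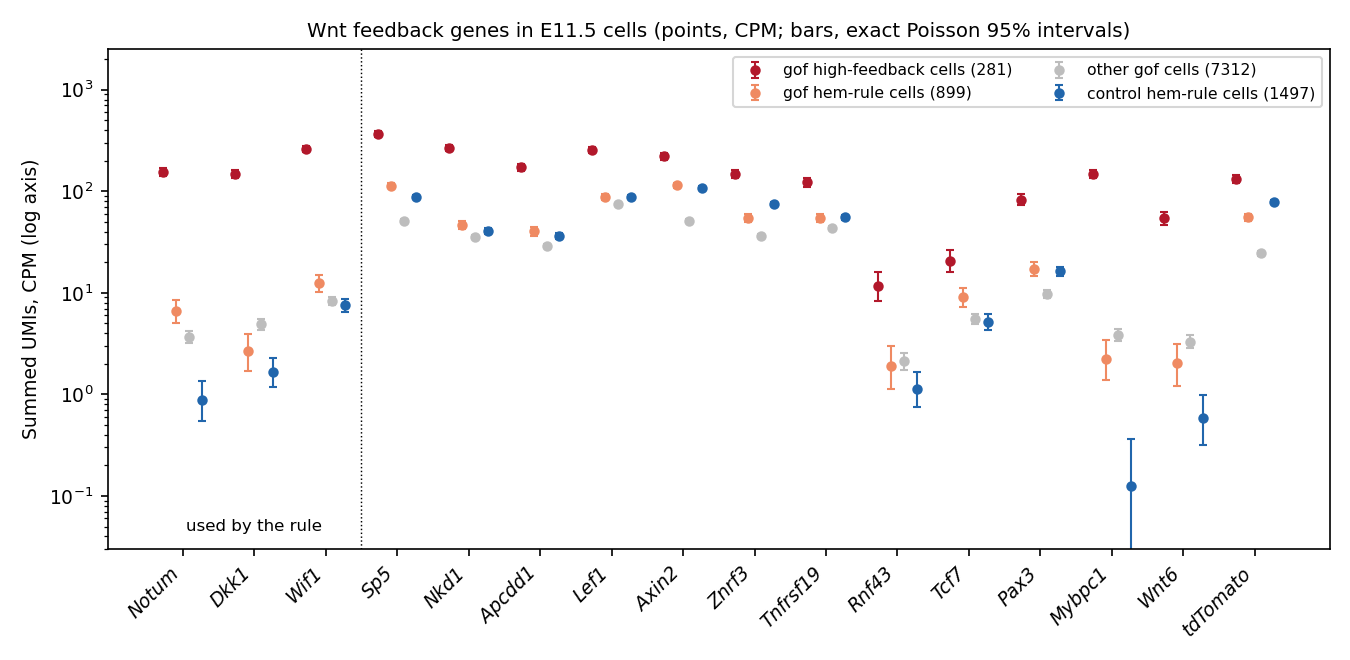
Levels (CPM, log axis, with exact Poisson 95% intervals) of Wnt feedback genes and markers in high-feedback cells, gof hem-rule cells, other gof cells and control hem-rule cells. Sp5 stands at 366 CPM in high-feedback cells and at 114, 51.1 and 87.6 CPM in the comparison groups, while Notum, Dkk1 and Wif1 were used to choose the cells.

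Other secreted inhibitors were not called higher against either hem-rule group. Of 10 listed, 6 were measured, and against gof hem-rule cells none was higher and 2 were lower, with a median log2 ratio of -0.24. Sfrp2, a soluble Frizzled-related protein, stood at 18.2 CPM in high-feedback cells, against 34.4 in gof hem-rule cells, 35.4 in other gof cells and 33.4 in control hem-rule cells. Sfrp1 stood at 49.98 CPM, against 65.0, 114 and 80.8, and was not called against gof hem-rule cells. Dkk3 stood at 9.26 CPM, against 16.9, 7.21 and 15.7.

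Wnt ligands differed in both directions. Wnt6 (chr1:74771892-74785322), a ligand known from skin and kidney, stood at 54.3 CPM (46.6 to 62.9) in high-feedback cells, against 2.02 in gof hem-rule cells, 3.30 in other gof cells and 0.586 in control hem-rule cells. Wnt10a stood at 14.8 CPM, against 1.27, 1.43 and 1.38. Agonists typical of the hem were not higher than in either hem-rule group. Rspo2, an R-spondin that protects Wnt receptors from Znrf3 and Rnf43, stood at 173 CPM (159 to 188), against 459 in gof hem-rule cells and 545 in control hem-rule cells. In other gof cells Rspo2 stood at 124 CPM, a difference that was not called. Wnt7b stood at 22.2 CPM, against 56.7 in gof hem-rule cells, 29.0 in other gof cells and 51.3 in control hem-rule cells. Rspo3 stood at 630 CPM, against 899, 378 and 1003, and Wnt8b at 166 CPM, against 238, 86.0 and 237. Against gof hem-rule cells neither of these last genes was called, and both had higher levels than in other gof cells. Both hem-rule groups were chosen on hem genes, and the part of that choice in these levels was not tested.

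Among 12 measured ligands and R-spondins of 21 listed, 2 were higher and 6 lower against gof hem-rule cells, with a median log2 ratio of -0.69. Without the 3 of these that the hem rule used, 2 of 9 were higher and 3 lower. Against control hem-rule cells 2 of 12 were higher and 9 lower, with a median of -0.73. Against other gof cells the direction was the opposite, with 6 of 11 higher and none lower and a median of 0.74. With cells chosen anew after thinning, that median was -0.011. Of those 3, Wnt3a stood at 21.0 CPM in high-feedback cells and 60.0 in gof hem-rule cells, Wnt9a at 40.1 and 129, and Rspo1 at 238 and 417. These values were fixed in part by choosing the comparison cells on those genes.

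Among the receptors, Fzd10, a Frizzled, stood at 74.7 CPM in high-feedback cells, against 14.01 in gof hem-rule cells, 15.6 in other gof cells and 15.6 in control hem-rule cells. Ror1, a Wnt5a co-receptor, stood at 36.4 CPM, against 16.5, 16.1 and 22.3. In all 3 of 11 measured receptors were higher and 1 was lower against gof hem-rule cells, of 17 listed. Their median log2 ratio was -0.038, where all genes had -0.01.

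Hem genes were detected in part of the cells. The hem rule was met by 99 of the 281 high-feedback cells. Lmx1a, the factor whose locus drives Cre, stood at 54.0 CPM in high-feedback cells, against 72.1 in gof hem-rule cells, 17.9 in other gof cells and 87.8 in control hem-rule cells. Of 12 measured hem and roof plate genes outside the hem rule, 10 were higher and none lower against other gof cells, with a median log2 ratio of 0.92, and 1 was higher and 2 lower against gof hem-rule cells, with a median of 0.25. Zic4, a dorsal midline zinc-finger factor, stood at 265 CPM, against 174 in gof hem-rule cells, 123 in other gof cells and 147 in control hem-rule cells. Msx1, a BMP target, stood at 140 CPM, against 106, 122 and 101, and was not called.

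BMP ligands also split. Bmp4 stood at 135 CPM in high-feedback cells, against 86.2 in gof hem-rule cells, 37.8 in other gof cells and 66.3 in control hem-rule cells, and Bmp5 at 78.1 CPM, against 43.9, 20.2 and 40.5. Both were called higher in all 3 contrasts. Bmp6 stood at 39.8 CPM, against 62.3, 17.6 and 78.6, so it was lower than in either hem-rule group and higher than in other gof cells. Bmp7 at 63.9 CPM was called only against other gof cells, where it was 21.3 CPM.

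**Figure D3:**
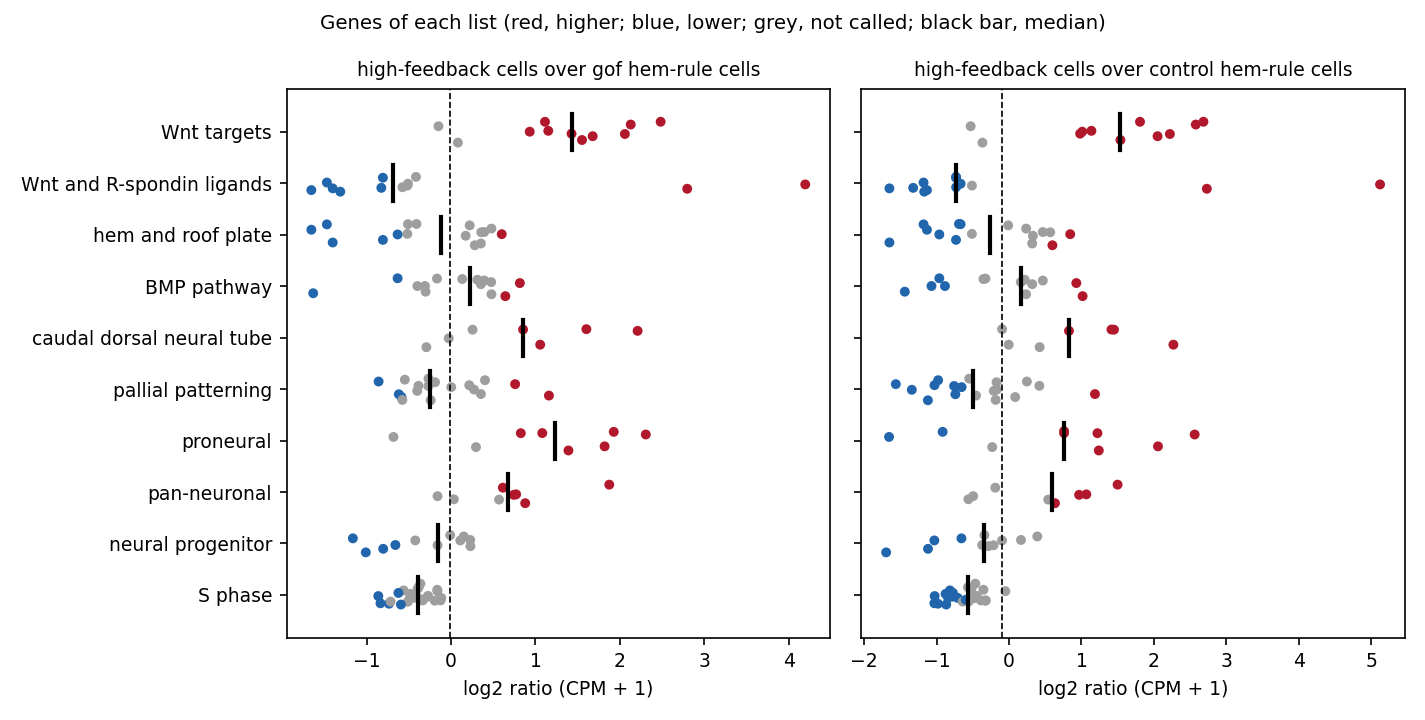
Log2 ratios of high-feedback cells over gof hem-rule cells (left) and control hem-rule cells (right) for the measured genes of each list, with bars at list medians and a dashed line at the median of all genes. Wnt targets lie to the right with a median of 1.43 against gof hem-rule cells, and S-phase genes lie to the left with a median of -0.40.

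Several genes had a higher ratio than any listed Wnt target. In each of the 3 contrasts the highest ratios, among genes of at least 50 CPM and outside those used by the rules, began with Mybpc1, Wnt6 and Runx2 in that order. Mybpc1 (chr10:88518279-88605152), a myosin-binding protein known from skeletal muscle, stood at 147 CPM (134 to 161) in high-feedback cells, against 2.23 in gof hem-rule cells, 3.88 in other gof cells and 0.125 in control hem-rule cells, where it had 3 UMIs in all. After thinning it was detected in 35.2% of high-feedback cells, against 0.349% of gof hem-rule cells, 0.915% of other gof cells and 0.0670% of control hem-rule cells. Gof erythroid cells showed it in 0.599% (0.0726 to 2.15%), an interval that overlapped that of gof hem-rule cells (0.0721 to 1.02%). The part of free RNA in these shares was not tested. Runx2, a factor best known from bone, stood at 74.0 CPM, against 7.32, 6.71 and 4.56.

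Others near the top included Tril, a Toll-like receptor accessory protein, at 61.4 CPM in high-feedback cells and 9.13, 15.2 and 4.10 in the comparison groups. Pam, an enzyme that amidates peptides, stood at 551 CPM, against 142 in gof hem-rule cells, 87.8 in other gof cells and 76.3 in control hem-rule cells. Tenm2, a teneurin adhesion receptor, stood at 696 CPM, against 136, 112 and 138. Nav3, a cytoskeletal protein, stood at 178 CPM, against 25.8, 32.6 and 26.4, and Phlda1 at 118 CPM, against 21.9, 25.0 and 14.2.

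The lowest ratio in each contrast was that of Ttr. Ttr, the choroid plexus carrier protein transthyretin, stood at 7.40 CPM in high-feedback cells, against 315 in gof hem-rule cells, 105 in other gof cells and 446 in control hem-rule cells, and 58.3% of its UMIs in high-feedback cells came from 1 cell. The choroid plexus list as a whole differed between contrasts, as 1 of 6 measured genes was higher and 1 lower against gof hem-rule cells (median 0.0014), 4 of 6 were higher and 1 lower against other gof cells (median 1.08), and 1 of 7 was higher and 4 lower against control hem-rule cells (median -0.68). Hopx stood at 34.6 CPM, against 103, 46.9 and 151, and Prdm16, a factor of radial glia and choroid plexus, at 18.8 CPM, against 51.8, 26.1 and 58.3. Ezr, which links membrane and actin, stood at 247 CPM, against 603 and 661 in the gof and control hem-rule cells. Some of the lowest genes against control hem-rule cells differed much less within the gof library. Hes5, a Notch target, stood at 72.2 CPM in high-feedback cells and 77.2 in gof hem-rule cells, against 369 in control hem-rule cells. H1f5, a linker histone, stood at 58.0, 87.2 and 319 CPM in the same groups, and Hist1h2ap at 33.3, 45.7 and 125. For these genes the genotype, the library and the embryos cannot be told apart.

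Regional genes differed in both directions. Emx1, a dorsal telencephalic factor, stood at 27.2 CPM in high-feedback cells, against 42.2 in gof hem-rule cells, 37.1 in other gof cells and 70.4 in control hem-rule cells. Lhx2, which opposes hem fate in cortex, stood at 110 CPM, against 144, 192 and 240, and was not called against gof hem-rule cells. Of 18 measured pallial factors 2 were higher and 3 lower against gof hem-rule cells, with a median log2 ratio of -0.25, and 1 was higher and 8 lower against control hem-rule cells, with a median of -0.50. Dmrta1 stood out in the opposite direction at 65.7 CPM, against 28.9, 23.7 and 28.3.

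Of 21 listed genes of caudal or dorsal neural tube, 7 were measured against gof hem-rule cells, of which 4 were higher and none lower, with a median of 0.85 that became 0.11 at a minimum of 50 CPM. Against other gof cells 4 of 9 were higher and 3 lower, with a median of 0.48. The 4 higher against gof hem-rule cells were Pax3, already given, Pax7, Olig3 and Irx5. Pax7 stood at 18.5 CPM in high-feedback cells, against 8.39 in gof hem-rule cells, 3.20 in other gof cells and 10.0 in control hem-rule cells. With cells chosen anew after thinning, its log2 ratio against control hem-rule cells was -0.51. Irx5 stood at 12.03 CPM, against 3.29, 4.17 and 3.89. Olig3 stood at 13.3 CPM, against 6.90 in gof hem-rule cells and 4.22 in control hem-rule cells, but other gof cells were higher at 24.1 CPM. The other 14 genes of the list were below 10 CPM in both high-feedback and gof hem-rule cells.

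Signals of the rostral midline differed in direction. Fgf8, a ligand of the anterior neural ridge, stood at 59.2 CPM in high-feedback cells, against 36.3 in gof hem-rule cells, 27.9 in other gof cells and 38.9 in control hem-rule cells. Fgf17, a related ligand, stood at 47.5 CPM, against 91.9, 56.8 and 91.5, and Six3, a rostral factor, at 25.0 CPM, against 55.2, 33.3 and 55.4. Il17rd, an FGF-induced feedback inhibitor, stood at 49.1 CPM, against 27.3, 23.3 and 30.5. Spry2, another FGF feedback inhibitor, stood at 190 CPM, against 145 in gof hem-rule cells and 132 in other gof cells, neither called, and against 63.5 in control hem-rule cells.

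Most measured proneural genes were higher than in gof hem-rule cells. Neurog2, a proneural factor, stood at 198 CPM (183 to 214) in high-feedback cells, against 51.3 in gof hem-rule cells, 51.5 in other gof cells and 84.3 in control hem-rule cells. Gadd45g, which accompanies exit from the cell cycle, stood at 439 CPM (417 to 463), against 88.0, 187 and 73.5, with between 0 and 32 UMIs per cell and a median of 3. Hes6 stood at 192 CPM, against 72.7, 78.5 and 80.9, and the Notch ligand Dll1 at 66.6 CPM, against 25.2, 27.4 and 38.9. Insm1 stood at 46.0 CPM, against 12.3 in gof hem-rule cells and 10.3 in control hem-rule cells, while other gof cells at 34.2 CPM were not called. Eomes, a factor of intermediate progenitors, stood at 2.78 CPM, against 5.84 in gof hem-rule cells, 17.3 in other gof cells and 10.9 in control hem-rule cells.

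Of the measured proneural genes 6 of 8 were higher and none lower against gof hem-rule cells, with a median log2 ratio of 1.24, and 6 of 9 were higher and 2 lower against control hem-rule cells, with a median of 0.76. Against other gof cells 3 of 9 were higher and 2 lower, with a median of 0.14 where all genes had 0.09. Tubb3, neuronal beta-tubulin, stood at 325 CPM (306 to 345), against 88.0, 175 and 114 in gof hem-rule, other gof and control hem-rule cells. Stmn2, a marker of later neurons, stood at 99.0 CPM, against 58.8 and 50.2 in gof and control hem-rule cells, but lower than the 218 CPM of other gof cells. With cells chosen anew after thinning, its log2 ratio against other gof cells was 0.24. For the pan-neuronal list as a whole 5 of 8 measured genes were higher and none lower against gof hem-rule cells, whereas 1 was higher and 4 lower against other gof cells. Against control hem-rule cells its median was 0.59, but it was -0.13 in cells with 2000 or more genes and no more than 5% mitochondrial UMIs, and there Stmn2 turned to -0.13 against control hem-rule cells and to -0.37 against gof hem-rule cells.

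Some progenitor genes were lower. Sox9 stood at 78.7 CPM (69.3 to 88.9) in high-feedback cells, against 160 in gof hem-rule cells, 125 in other gof cells and 258 in control hem-rule cells, and was called lower in all 3 contrasts. Sox2 stood at 108 CPM, against 190, 135 and 236, and Fabp7 at 573 CPM, against 1284, 725 and 904. Of 11 measured progenitor genes none was higher and 4 were lower against gof hem-rule cells. Against other gof cells only 1 of the 11 was lower, with a median log2 ratio of -0.08 where all genes had 0.09. Of 25 S-phase genes none was higher and 5 were lower against gof hem-rule cells, with a median of -0.40, and 11 were lower against control hem-rule cells, with a median of -0.57. Against other gof cells 3 S-phase genes were lower, with a median of -0.23. Both hem-rule groups were chosen on hem genes, and the part of that choice here was not tested. Cdc6, a replication licensing factor, stood at 7.40 CPM, against 14.01, 13.5 and 16.2. No G2 or M-phase gene of 25 was called against gof hem-rule cells.

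Of 11 measured cell cycle regulators 2 were higher and 1 lower against gof hem-rule cells, and 2 were higher and 2 lower in each of the other contrasts. Their median against gof hem-rule cells was -0.12, where all genes had -0.01. Cdkn1a, the inhibitor p21, stood at 168 CPM (154 to 183) in high-feedback cells, against 20.2 in gof hem-rule cells, 38.0 in other gof cells and 23.5 in control hem-rule cells. Cdkn1c, the inhibitor p57, stood at 258 CPM, against 138 and 148 in gof and control hem-rule cells, and 251 in other gof cells. Pmaip1, which encodes the death protein Noxa, stood at 125 CPM, against 39.5, 21.8 and 55.2, and was detected in 21.4% of high-feedback cells. Of 8 measured p53 targets these 2, Cdkn1a and Pmaip1, were called higher against gof hem-rule cells and none was lower. Of 10 measured genes that respond to tissue dissociation, 1 was higher against gof hem-rule cells and 4 against control hem-rule cells.

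Markers of Cajal-Retzius cells differed in both directions. Against gof hem-rule cells 6 of 11 measured markers were higher and 2 lower, with a median log2 ratio of 0.61, and against other gof cells 2 of 13 were higher and 5 lower. The higher ones include Nhlh1, Nhlh2 and Ebf3, which differentiating neurons of other kinds also express. Nhlh1 stood at 33.3 CPM in high-feedback cells, against 7.32 in gof hem-rule cells, 24.8 in other gof cells and 7.24 in control hem-rule cells. Reln, the secreted protein that defines mature Cajal-Retzius cells, stood at 18.8 CPM, against 30.2, 22.5 and 22.2. Trp73, a factor of hem-derived Cajal-Retzius cells, stood at 8.02 CPM, against 8.39, 13.2 and 12.8. With cells chosen anew after thinning, its log2 ratio against other gof cells was 0.66. Lhx5 stood at 14.8 CPM, against 31.2, 24.1 and 28.03, and was called lower in all 3 contrasts.

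Some adhesion and guidance receptors were higher. L1cam, an axonal adhesion molecule, stood at 23.4 CPM in high-feedback cells, against 2.44 in gof hem-rule cells, 4.34 in other gof cells and 1.51 in control hem-rule cells. Ephb1, an Eph receptor, stood at 48.7 CPM, against 12.3, 8.96 and 21.3. Unc5c, a netrin receptor, stood at 197 CPM, against 95.3, 83.9 and 77.9, and Robo1, a Slit receptor, at 116 CPM, against 39.6, 80.7 and 39.2. The ligand Slit3 stood at 29.6 CPM, against 63.5 and 71.9 in gof and control hem-rule cells, and 28.2 in other gof cells. Against gof hem-rule cells 6 of 22 measured guidance genes were higher and 3 lower, and 3 of 14 adhesion genes were higher and 1 lower. Over all measured genes 5.89% were higher and 3.3% lower. The list medians were 0.034 for guidance and 0.21 for adhesion genes, where all genes had -0.01.

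Most high-feedback cells carried the reporter. The tdTomato transcript was detected in 183 of 281 high-feedback cells (65.1%, 59.2 to 70.7%), against 31.5% of gof hem-rule cells, 12.5% of other gof cells and 54.3% of control hem-rule cells. After thinning to 3000 UMIs the shares were 34.1%, 13.9%, 5.98% and 21.97%, and that in gof erythroid cells was 1.20%. Its level was 133 CPM (121 to 146) in high-feedback cells, against 55.2, 24.5 and 78.8. A cell with no tdTomato UMI is not shown to be unrecombined, since the transcript is sparse in these counts.

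High-feedback cells with a tdTomato UMI were deeper than those without, with medians of 10522 and 5565.5 UMIs. In the 183 with it and the 98 without it Sp5 stood at 383 and 317 CPM, and Nkd1 at 274 and 245. Axin2 stood at 243 CPM in cells with the reporter and 152 in cells without it. Cdkn1a stood at 130 CPM in cells with it and 280 in cells without it, and Mybpc1 at 143 and 158. After thinning to equal depth Cdkn1a was detected in 26.0% of cells with the reporter and 34.4% without, and Axin2 in 52.5% and 41.1%. The shares were 65.5% and 56.7% for Sp5, 59.9% and 54.4% for Nkd1, 61.0% and 46.7% for Lef1, and 48.0% and 33.3% for Apcdd1. Pax3 (15.8% and 18.9%) and Mybpc1 (33.9% and 37.8%) had the higher share in cells without the reporter. For each of these genes the intervals of the 2 groups overlapped.

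Within the 281, cells that met the hem rule differed from those that did not. Median depth was 16303 UMIs in the 99 that met it, against 5938 in the 182 that did not, so depth and hem genes move together here and their parts cannot be told apart. Rspo2 stood at 250 CPM in the 99 and 68.8 in the 182, Sox9 at 103 and 46.3, and Sox2 at 140 and 65.9. Several other genes had higher levels in the 182. Sp5 stood at 322 CPM in the 99 and 426 in the 182, Mybpc1 at 98.4 and 213, Cdkn1a at 78.0 and 289, Gadd45g at 293 and 636, and Tubb3 at 227 and 457. Axin2 did not follow this order, at 237 CPM in the 99 and 198 in the 182. After thinning to equal depth, which kept 98 of the 99 and 169 of the 182, detection differed little for Nkd1 (58.2% in cells that met the hem rule and 58.0% in the rest), Axin2 (49.0% and 48.5%) and Neurog2 (42.9% and 43.2%), and the intervals of Sp5 (54.1% and 67.5%) and Mybpc1 (28.6% and 39.1%) overlapped. Those of Cdkn1a (18.4% and 34.9%) did not.

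Feedback marks were higher in gof cells with 1 or 2 UMIs of the rule genes than in cells with none. Above the threshold Lef1, Apcdd1, Pax3 and Mybpc1 rose at each step. Sp5, Nkd1 and Axin2 were lowest in the middle step and highest in the last. For all of these genes the intervals of the first 2 steps above the threshold overlapped. This is a description, since the same cells and pathway define the steps. In the 6654 gof cells with none of the 3 transcripts Sp5 stood at 36.9 CPM, and in the 468 with 1 UMI at 123 CPM. Just outside the rule, 104 cells with 2 UMIs that included Notum or Dkk1 held Sp5 at 280 CPM and Mybpc1 at 33.0 CPM, and 86 cells with at least 2 UMIs of Wif1 alone held Sp5 at 231 CPM and Mybpc1 at 68.5 CPM. Just inside it, the 66 cells with 3 UMIs held Sp5 at 325 CPM and Mybpc1 at 89.2 CPM. The 84 cells with 4 or 5 UMIs held Sp5 at 316 CPM, and the 131 with 6 or more held it at 404 CPM. Nkd1 stood at 266, 228 and 286 CPM and Axin2 at 182, 176 and 254 CPM in these 3 steps. Lef1 stood at 206, 234 and 284 CPM and Apcdd1 at 147, 150 and 191 CPM. Mybpc1 stood at 115 CPM in the 84 cells and 181 CPM in the 131. Pax3 differed little above the threshold, at 76.2, 78.8 and 86.6 CPM in the 3 steps, against 7.24 CPM in cells with none of the rule transcripts. Depth and mesenchyme transcripts differed across the same steps, and their part was not tested. Median depth was 6410.5 UMIs in the 104 cells, and 6169, 8224.5 and 10481 in the 3 steps above the threshold. The mesenchyme flag was carried by 24.0% of the 104 cells and by 16.7%, 14.3% and 10.7% in those steps, with Col3a1 at 354 CPM in the 104 cells and at 284, 130 and 37.4 CPM in the steps.

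**Figure D4:**
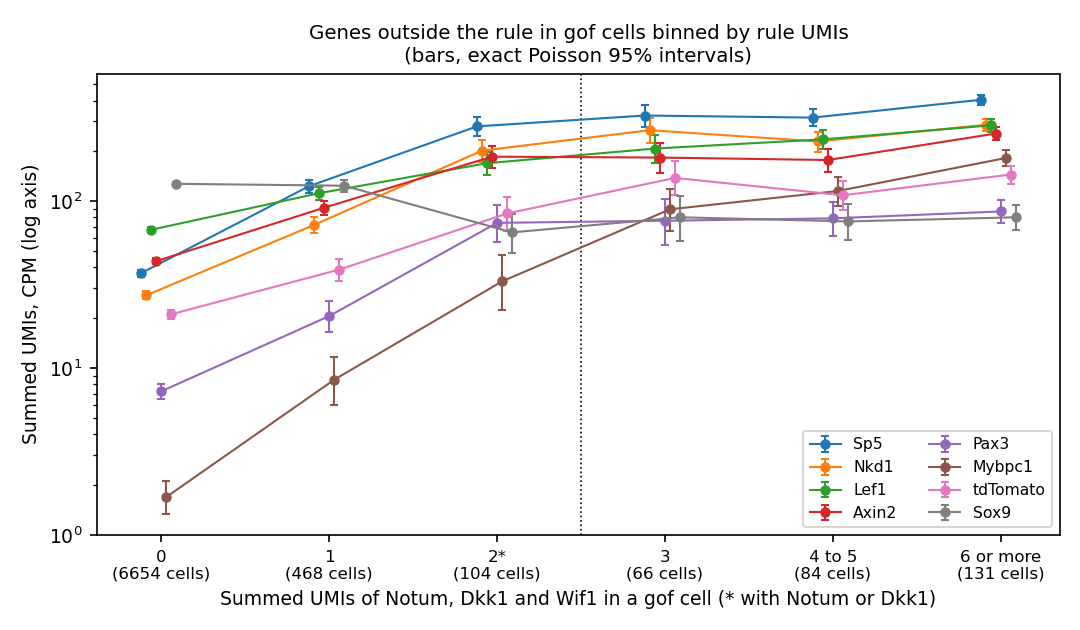
Levels (CPM, log axis, with exact Poisson 95% intervals) of 8 genes in gof cells by their UMIs of the rule genes. Sp5 stands at 36.9 CPM in cells with 0 UMIs, 325 CPM in the 66 high-feedback cells with 3 UMIs and 404 CPM in the 131 with 6 or more.

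Most high-feedback cells fell together when E11.5 cells of both libraries were clustered without 159 genes, among them the rule genes, the hem-rule genes, the Wnt targets, Pax3 and tdTomato. Of 21 clusters 1 held 204 of the 281 (72.6%, 67.0 to 77.7%). It consisted of 378 gof cells and 2 control cells, and 54.0% of its gof cells were high-feedback cells. It was led by Mybpc1, Wif1, Notum, Dkk1, Pam, Nkd1, Sp5, Aspscr1, Runx2 and Wnt6 when all genes were ranked. It held 2.67% of gof hem-rule cells, 2.38% of other gof cells and 0.0668% of control hem-rule cells. Since it is almost wholly of 1 library, library and cell state cannot be told apart, and it was given no cell type name.

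The 174 other gof cells of that cluster did not meet the rule and had a lower median depth of 4348 UMIs, yet held several of the same marks. They also carried rule transcripts, with Notum at 86.0 CPM, Dkk1 at 27.9 and Wif1 at 163. Sp5 stood at 467 CPM in the 204 high-feedback cells of the cluster and 490 CPM in those 174, Nkd1 at 344 and 341, Axin2 at 269 and 276, and Pax3 at 107 and 112. Some genes were higher in the 204: Mybpc1 stood at 221 CPM in them and 117 in the 174, Neurog2 at 252 and 141, and Tubb3 at 390 and 225.

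The 77 high-feedback cells outside the cluster were deeper, with a median of 13756 UMIs, and held less of most marks. Sp5 stood at 221 CPM in them, Nkd1 at 154 and Mybpc1 at 41.4, while Sox9 stood at 116 CPM in them and 52.8 in the 204. Of these cells 22 fell in a cluster led by Rspo2, Rspo1 and Wnt9a that held 41.5% of gof hem-rule cells, 15 in a cluster in which 90.9% of cells carried the mesenchyme flag, and 13 in a cluster led by Cdkn1a, Trp73 and Lhx1. High-feedback cells occurred in 13 of the 21 clusters.

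**Figure D5:**
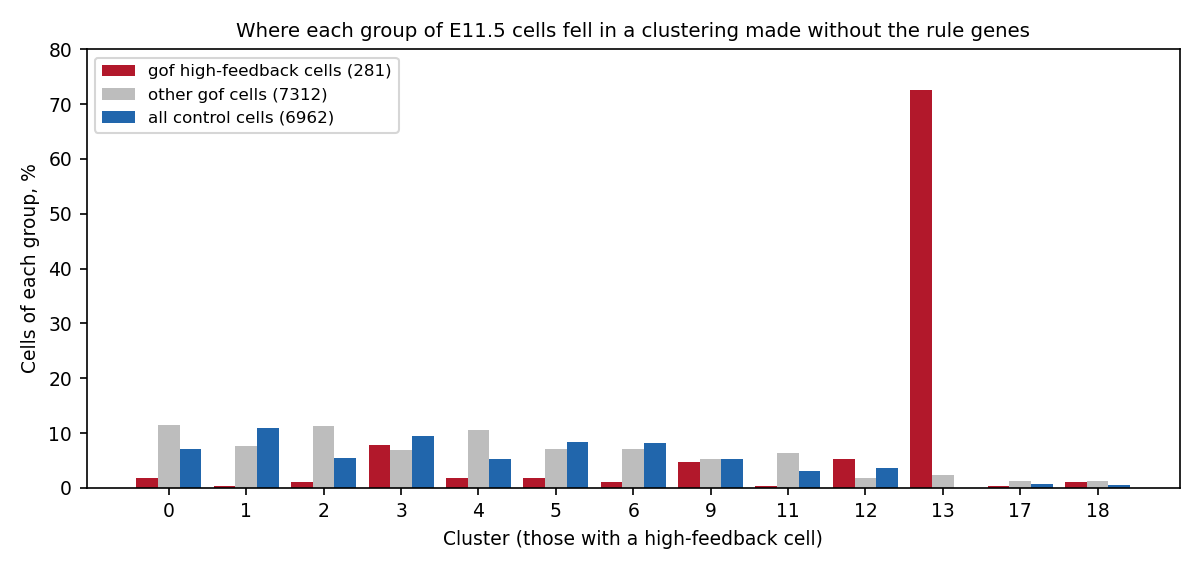
Share of high-feedback cells, other gof cells and all control cells (percent of each group) in each E11.5 cluster that holds a high-feedback cell. The cluster with 72.6% of high-feedback cells holds 2.38% of other gof cells and 2 control cells.

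Most high-feedback cells carried some transcripts of other cell types, as the comparison cells did. UMIs of erythroid genes were found in 95.7% of high-feedback cells, of mesenchyme genes in 54.8% and of neural crest markers in 51.6%. The mesenchyme flag, which needs several of its genes, was carried by 37 of 281 high-feedback cells (13.2%), against 9.45% of gof hem-rule cells, 19.97% of other gof cells and 14.4% of control hem-rule cells. All 10 mesenchyme genes had UMIs, and their summed level was 352 CPM in high-feedback cells, against 305, 960 and 198 CPM, with a range over single high-feedback cells of 0 to 11530 CPM and a median of 58.6. Flagged high-feedback cells had a median of 18967 UMIs, and the others 7706. Col3a1, a fibrillar collagen, stood at 429 CPM in the flagged and 6.04 CPM in the others, whereas gof mesenchyme cells held 1661 CPM. Sp5, outside the rule, stood at 286 CPM in the flagged and 391 in the others. After thinning it was detected in 54.1% (36.9 to 70.5%) of the flagged and 63.9% (57.3 to 70.1%) of the others. Notum stood at 114 and 167 CPM, but as a rule gene its level was fixed in part by the choice of cells. The part of mesenchyme transcripts in these levels was not tested.

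Erythroid transcripts summed to 18085 CPM in high-feedback cells, against 11251, 35605 and 10364 CPM in gof hem-rule, other gof and control hem-rule cells. In the high-feedback cells with neither flag they summed to 470 CPM, 8 of the 281 carrying the erythroid flag. Neural crest markers summed to 105 CPM in high-feedback cells, against 75.6, 161 and 66.3, and the defining crest genes Sox10 and Foxd3 were at 0 in high-feedback cells. Endothelial markers summed to 35.2 CPM, against 43.8, 125 and 39.0, and macrophage markers to 23.4 CPM, against 23.8, 88.9 and 17.4. Pericyte markers summed to 36.7 CPM, against 35.7, 47.6 and 36.4, with Rgs5 at 0 in high-feedback cells. Surface ectoderm markers summed to 42.6 CPM, against 65.9, 34.96 and 59.3, with Krt5 at 0 in high-feedback cells. The part of doublets in the levels above was tested only by removing high doublet scores, given with the other alternatives.

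At E14.5 the same rule was met by 724 gof cells (12.99%, 12.1 to 13.9%) and 49 control cells (0.693%), and tdTomato was detected in 97.1% of these gof cells and in 87.2% of 716 E14.5 control hem-rule cells. The E14.5 gof cells held Sp5 at 421 CPM, Nkd1 at 834, Mybpc1 at 780, Wnt6 at 145 and Pax3 at 27.8, against 95.8, 116, 12.5, 0.214 and 3.07 CPM in E14.5 control hem-rule cells. Median depth of passing cells was 14354.5 UMIs in the E14.5 gof and 13166 in the E14.5 control library, against 5872 in the E11.5 gof library. A deep cell meets the rule more easily, and the part of depth in the different shares at the 2 ages was not tested.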

How the data were processed

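Single-cell libraries were made with 10x Genomics 3′ v3.1 chemistry, per the labels' protocols. The deposited matrices hold UMI counts per gene and barcode, which the authors made with Cell Ranger (version 7.1.0) against mm10, per the submitters' processing notes. Which annotation release they used is not stated there. Each matrix holds 21937 features and no barcode below 500 UMIs. Reads of overlapping genes, near-identical copies and antisense partners may have been split by that counting.

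Members, gene lists and comparisons were chosen with earlier results of these data known. Barcodes under 1000 genes or over 10% mitochondrial UMIs were removed (1084 of the E11.5 gof and 616 of the E11.5 control library). The counts of all cells in a group were added up per gene and divided by the group's total. Poisson and Clopper-Pearson intervals are at the 95% level. Ratios are log2 with a pseudocount of 1 CPM, so they understate the change of low genes, and genes had to reach 10 CPM in either group. The procedure was tested on simulated data. Genes were named by rank: the 10 highest and 10 lowest ratios per contrast among called genes of at least 50 CPM outside the rule genes, with the called genes and the extremes of each of 35 lists. Subgroups of cells, and other genes given for them, were chosen after their values were seen. No fit or test over samples was possible with 1 library per group.

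Clustering of the E11.5 cells used scanpy 1.11.5 with 3000 variable genes, 30 principal components, 15 neighbours and Leiden resolution 1 (igraph 0.11.9). Scrublet marked only 2 barcodes as doublets in each E11.5 library and so did not work as a caller; as an alternative, the barcodes with the highest scores (602 gof, 459 control) were removed, 35 of the 281 high-feedback cells among them (12.5%, against 7.93% of all gof cells). Free RNA was gauged roughly from gof erythroid cells, some of which met the hem rule or carried the mesenchyme flag. Gene positions are from GENCODE M21 on GRCm38. Alternatives were other barcode filters, rule thresholds, thinning, reporter, flag and hem-rule restrictions, expression minimum, pseudocount, per-cell means and centring. Their application to list medians was chosen after seeing the data. Software was Python 3.11.15, numpy 2.4.6, scipy 1.17.1, pandas 2.3.3, scikit-learn 1.9.0 and matplotlib 3.10.9.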

Additional observations from a re-analysis of the deposited data

Results flagged for a closer look

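At E14.5 the cells that met the rule were set against E14.5 control hem-rule cells as at E11.5. Only the genes named as described above, outside those used to choose cells, were searched. Of these, 7 were called in opposite directions at the 2 ages, and the count over all measured genes was not made. The difference between ages was not tested, and each value rests on 1 library per group. Fgf17, a rostral midline ligand, had a log2 ratio of -0.93 at the earlier age and 4.87 at the later one, and Six3, a rostral factor, had -1.12 and 1.09. Efnb1, an ephrin ligand, had -1.05 at E11.5 and 0.72 at E14.5. Cxcl12, a chemokine made by meningeal and other mesenchyme, had 1.16 at E11.5 and -2.23 at E14.5, and high-feedback cells with neither the mesenchyme nor the erythroid flag held 2.60 CPM of it. The stress-response genes Atf3 (0.89 at E11.5, -1.14 at E14.5) and Junb (0.59 and -0.84) and the p53 target Ccng1 (0.75 and -0.63) were higher at E11.5 and lower at E14.5.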

How the results depend on the processing

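The share of high-feedback cells was 3.52% without the highest doublet scores and 4.11% without flagged cells, and it moved to 4.18% in cells of 2000 or more genes and no more than 5% mitochondrial UMIs, 5.07% with at least 2 rule UMIs, 2.20% with at least 5, and 1.49% after thinning to 3000 UMIs, which left 103 cells. With a minimum of 50 CPM, which tests fewer genes by construction, 195 genes were higher and 284 lower against control hem-rule cells, 264 and 70 against other gof cells, and 164 and 65 against gof hem-rule cells. With means of per-cell CPM genes were called by the 1.5-fold limit alone, without the interval condition, so these counts rest on a looser rule. There 653 genes were lower against other gof cells, and 866 were higher and 634 lower against gof hem-rule cells. Of 420 list medians 394 stayed within 1.5-fold of their main value, 23 moved and 3 reversed, and the causes were not tested. A median counted as reversed only where its main value was at least 1.5-fold, so smaller medians could change sign without being counted. Under thinning both rules were applied to the thinned counts, which left 103 high-feedback, 426 gof hem-rule and 602 control hem-rule cells. Cells that no longer met the high-feedback rule then counted among other gof cells. Thinning moved the medians of Wnt targets (2.32 against control hem-rule cells), ligands (-2.50 against control hem-rule and -2.24 against gof hem-rule cells, and reversed to -0.011 against other gof cells) and caudal genes (2.28 against control hem-rule cells). It also moved those of proneural genes to 2.26, 1.45 and 2.76, S-phase genes to -1.24, -1.12 and -1.13, and pan-neuronal genes to 2.001, 0.22 and 2.21 against control hem-rule, other gof and gof hem-rule cells, and progenitor genes to -0.93 against control and -0.96 against gof hem-rule cells. The pan-neuronal median against control hem-rule cells reversed to -0.13 under the stricter barcode filter and to -0.028 in cells with tdTomato. Proneural medians became 1.42 and 1.90 against control and gof hem-rule cells without the highest doublet scores, 1.28 and 1.93 against other gof and gof hem-rule cells at the 50 CPM minimum, and 1.68 against control hem-rule cells with per-cell means. Caudal medians became 0.21 and 0.11 against control and gof hem-rule cells at that minimum, and the pan-neuronal one 1.51 against gof hem-rule cells with per-cell means. For the genes of the text, 3551 calls were tried over 12 alternatives: 3215 were kept, 323 were lost and 13 reversed. The stricter filter reversed Stmn2 (-0.13 against control and -0.37 against gof hem-rule cells), Lhx1 (0.091 against other gof cells) and Dqx1 (-0.61 against gof hem-rule cells). Thinning reversed Pax7 (-0.51 against control hem-rule cells) and, against other gof cells, Bambi (-0.11), Gap43 (0.15), Lhx1 (0.092), Rspo1 (-0.31), Stmn2 (0.24), Trp73 (0.66) and Wnt3a (-1.56). Restriction to cells with tdTomato reversed Gap43 (-0.14 against control hem-rule cells). The share of high-feedback cells in 1 cluster was 72.2% at both other resolutions. No paired analysis was possible because each group has 1 library and the labels give no replicate numbers.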
